A study of Saccharomyces cerevisiae with 4 samples.

Results

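The introns of budding yeast were followed as regions of their own in RNA from wild-type cells and from a CHD1 deletion; CHD1 is a remodelling ATPase that moves nucleosomes. Of 793 features in the deposited intron tables, 252 were introns, found as the even members of chains of abutting features: 232 chains held 3 features and 10 held 5. All 252 coincided exactly with an annotated intron, in 242 genes. By length, 139 introns had up to 200 nucleotides (52 to 200, median 92) and 113 had more (209 to 1002, median 403). The 494 exons of the same chains served as the reference, and the other 47 features were not used as introns or exons.

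Both groups were in the BY4741 background and grew in YPD, a rich medium with glucose, at 30 °C until mid-log phase. The wild type (labelled wildtype) and the CHD1 deletion had 2 libraries each, made from total RNA with a kit meant for small RNA. The labels do not say whether replicates were separate cultures, and the spread behind each p-value may be technical. Gene reads numbered 2145684 to 4117998 per library, and intron reads 6597 and 10354 in wild type, replicate 1 before 2 here and below, against 9665 and 5977 in the deletion. CHD1 itself was counted 211 and 396 times in wild type against 7 and 3 times in the deletion.

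Introns are cut from the precursor RNA by the spliceosome, which recognises a 5′ splice site, a branch site inside the intron and a 3′ splice site. Few yeast genes have an intron, and ribosomal protein genes make up a large part of those that do. A spliced-out intron is normally unwrapped and destroyed, so its read density is far below that of the exons. A high density can come from unspliced RNA or from a stable RNA that the intron carries, and read counts alone do not tell these apart.

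Most introns shared the same opening and branch letters. On the strand of the gene, 191 of 252 introns (75.8%) opened with GTATGT and 24 with GTACGT. The branch sequence TACTAAC was present in 210 of 252 (83.3%), in 107 of the 139 shorter introns (77.0%) and in 103 of the 113 longer ones (91.2%). The median distance from the start of TACTAAC to the intron end was 36 nucleotides in the shorter and 45 in the longer introns. Another 39 introns held a 7-letter run with 1 letter changed from TACTAAC, and 3 held neither. The last 3 letters were TAG in 130, CAG in 109 and AAG in 12, all 12 of the AAG ends lying in shorter introns. GTAAGT starts, 11 in number, were likewise in the shorter class.

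Some shorter introns whose exons had at least 100 reads in every library are shown whole, 5′ to 3′ from the R64 genome. They are those with the highest density relative to their exons, and RPL2A, the lowest among those with at least 10 reads in all. Capitals mark the first 6 letters, TACTAAC where present, and the last 3. YRF1-3 stands for 3 identical telomeric copies.
CIN2 (chrXVI:96154-96233, minus strand): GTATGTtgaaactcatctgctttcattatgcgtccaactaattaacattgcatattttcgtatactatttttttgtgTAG
GPI15 (chrXIV:557611-557684, plus strand): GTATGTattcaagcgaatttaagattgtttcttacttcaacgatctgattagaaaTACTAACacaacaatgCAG
YRF1-3 (chrVII:1084883-1085030, plus strand): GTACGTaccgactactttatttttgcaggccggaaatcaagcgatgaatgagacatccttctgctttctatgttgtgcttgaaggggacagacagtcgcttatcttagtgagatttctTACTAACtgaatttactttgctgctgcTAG
RPL2A (chrVI:221268-221414, minus strand): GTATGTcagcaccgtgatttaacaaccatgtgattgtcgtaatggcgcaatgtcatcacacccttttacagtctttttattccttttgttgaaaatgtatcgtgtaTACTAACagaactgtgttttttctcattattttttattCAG
CIN2 is among the 3 introns with neither TACTAAC nor a run 1 letter away from it within the searched end.

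For the longer introns the first 20 letters and the stretch up to the 3′ end are shown, with the same capitals. In HRB1 and YRA1 the capitals inside mark TACTAAT and GACTAAC, the closest runs. HAC1, RPS14B, GCR1, RPL22B, HRB1 and YRA1 had high densities, RPL30 is a classic autoregulated intron, and RPL14B had the lowest.
HAC1 start (chrVI:75840-75859, plus strand): CCGTGAttacgatgaccagg
HAC1 end (chrVI:76032-76091): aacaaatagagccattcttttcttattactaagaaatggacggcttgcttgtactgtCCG
RPS14B start (chrX:73797-73816, plus strand): GTACGTgaaaggggtgatat
RPS14B end (chrX:74145-74204): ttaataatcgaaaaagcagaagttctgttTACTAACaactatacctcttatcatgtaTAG
GCR1 start (chrXVI:412262-412281, plus strand): GTATGAtcataacacgcatt
GCR1 end (chrXVI:412951-413012): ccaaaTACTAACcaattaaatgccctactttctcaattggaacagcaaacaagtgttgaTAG
RPL22B start (chrVI:64901-64920, minus strand): GTACGTtaattttcgttcct
RPL22B end (chrVI:64600-64659): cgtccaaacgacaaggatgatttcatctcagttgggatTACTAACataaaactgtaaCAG
HRB1 start (chrXIV:622945-622964, plus strand): GTATGTttcattgataaggg
HRB1 end (chrXIV:623227-623286): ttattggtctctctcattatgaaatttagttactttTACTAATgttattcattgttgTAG
YRA1 start (chrIV:1236843-1236862, plus strand): GTATGTtaatacgtgaaatg
YRA1 end (chrIV:1237549-1237608): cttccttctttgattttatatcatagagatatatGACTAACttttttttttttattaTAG
RPL30 start (chrVII:439094-439113, plus strand): GTCAGTataacatgatttta
RPL30 end (chrVII:439264-439323): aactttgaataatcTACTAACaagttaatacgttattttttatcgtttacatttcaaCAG
RPL14B start (chrVIII:104406-104425, plus strand): GTATGTtgaacctaaaaccc
RPL14B end (chrVIII:104744-104803): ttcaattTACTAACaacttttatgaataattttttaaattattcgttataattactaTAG

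Most introns held few reads. Of the 139 shorter introns, 31 had 0 reads in all 4 libraries and 25 had at least 10 reads in total. All 113 longer introns had at least 1 read, and 104 had at least 10 in total. The 113 longer introns took 6454, 10122, 9365 and 5772 reads in the wild-type pair and the deletion pair, replicate 1 before 2, and the 139 shorter ones 143, 232, 300 and 205. Ratios to the exons were read for the 148 introns whose exons had at least 100 reads in every library, 41 shorter and 107 longer, and 139 of these held no annotated non-coding RNA gene.

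**Figure D1:**
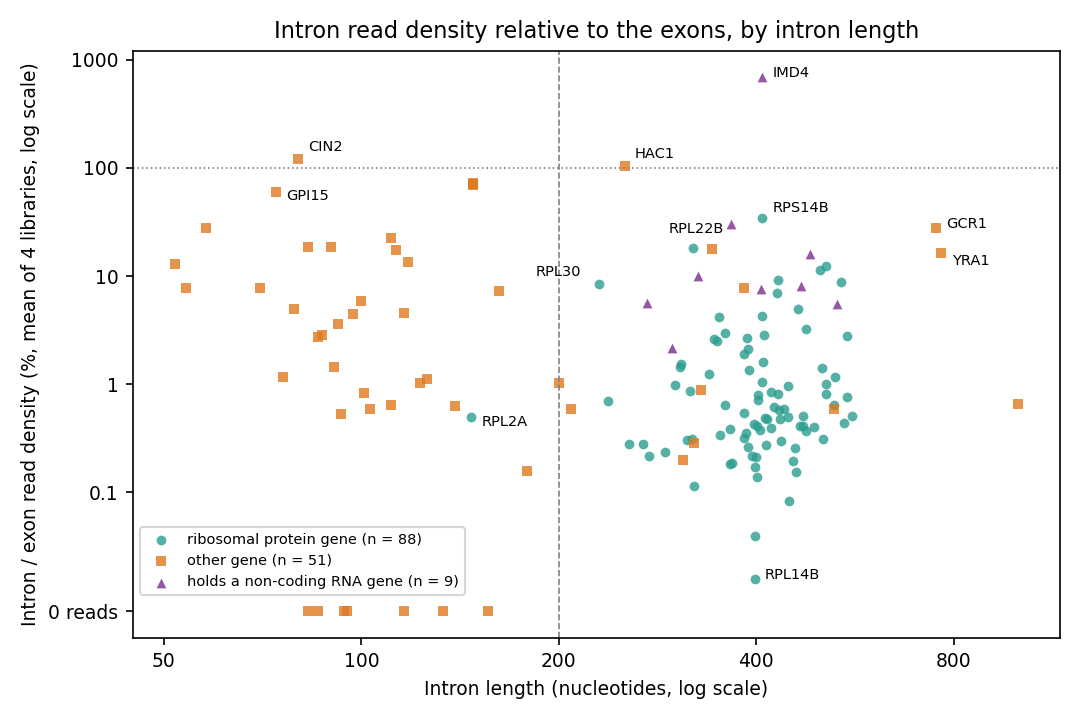
Each point is an intron whose exons had at least 100 reads in every library, placed by length (horizontal, nucleotides, log scale) and by read density relative to its exons (vertical, percent, mean of 4 libraries, log scale, with introns of 0 reads on the bottom line). The dashed line is the 200-nucleotide limit and the dotted line 100%; CIN2 and HAC1 lie above it, with IMD4, which holds a snoRNA gene, at 684%, and the 88 ribosomal protein introns without a non-coding RNA gene lie to the right, except RPL2A.

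Among the 98 longer introns without a non-coding RNA gene, the ratio averaged over the 4 libraries had a median of 0.607% (quartiles 0.313% and 1.82%), and 13 reached 5% or more. The 41 shorter introns had a median of 2.83% (quartiles 0.592% and 13.6%), and 16 reached 5%. The longer introns were measured far more closely: across introns, Spearman's rho of the ratio was 0.854 for the wild-type pair and 0.933 for the deletion pair in the longer class, and 0.265 and 0.656 for the shorter. Their hosts had a median of 8946 exon reads in the 4 libraries, against 950 for the shorter class. Within the longer class, rho between length and ratio was 0.112 (n = 98) and within the shorter class -0.212 (n = 41), while rho between exon density and ratio was -0.556 and -0.546. Exon density is the denominator of the ratio, and all these points share libraries.

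HAC1 encodes the transcription factor of the unfolded protein response, and its intron is removed by Ire1 and tRNA ligase, not by the spliceosome, under endoplasmic reticulum stress. The HAC1 intron (252 nucleotides, chromosome VI, 75840 to 76091) had 313 and 406 reads in wild type against 443 and 298 in the deletion. Its density was 106% and 109% of that of the exons in wild type against 95.6% and 102% in the deletion, the highest of the longer introns without a non-coding RNA gene. The groups did not overlap. With 2 libraries in each group, a lack of overlap by itself has an exact permutation p of 0.333. The change of the HAC1 intron relative to its exons did not pass the test (log2 -0.12 ± 0.21, adjusted p = 0.848, edgeR's quasi-likelihood test). As the sequence above shows, this intron lacks the usual splice-site letters at both ends.

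RPS14B encodes a small-subunit ribosomal protein that binds its own precursor RNA and hinders its splicing. The RPS14B intron (408 nucleotides, chromosome X) stood at 35.2% and 30.0% of exon density in wild type against 36.4% and 34.9% in the deletion, from 87 to 142 reads per library. GCR1, the activator of glycolytic genes, had an intron of 751 nucleotides at 22.9%, 32.0%, 27.3% and 28.3% in the wild-type pair and the deletion pair, replicate 1 before 2. In both genes the ranges of the genotypes overlapped.

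The RPL22B intron stood at 15.2% and 14.2% in wild type against 21.5% and 22.3% in the deletion, without overlap; RPL22B encodes a large-subunit protein known to repress the splicing of this intron. The change of the intron relative to its exons was 0.58 ± 0.25 (log2, standard error), with an adjusted p of 0.237 in edgeR's quasi-likelihood test. The HRB1 intron, in a gene for an RNA-export protein, had 6 and 4 reads in wild type against 16 and 10 in the deletion, or 18.1%, 9.79%, 21.4% and 22.2%. The groups did not overlap, but the change relative to exons did not pass the test (log2 0.67 ± 0.54, adjusted p = 0.644, edgeR).

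Several further long introns were far above the median of the class in every library. YRA1, an mRNA-export gene whose product limits the splicing of its own long intron (766 nucleotides), had 16.4% and 17.0% in wild type against 15.6% and 16.8% in the deletion. RPL28, with 441 to 661 intron reads per library, had 13.6% and 12.9% against 11.4% and 11.8%. RPS9A had 10.7% and 13.2% against 9.25% and 11.9%. RPL18B had 9.03% and 9.997% against 7.17% and 10.2%. RPS13 had 9.84% and 8.17% against 8.46% and 8.40%. RPL30, whose protein binds its transcript and blocks splicing, had 9.40% and 7.56% against 8.08% and 8.82%. Of these 6, the groups did not overlap in RPL28. Its change relative to exons did not pass the test (log2 -0.19 ± 0.19, adjusted p = 0.758, edgeR's quasi-likelihood test).

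**Figure D2:**
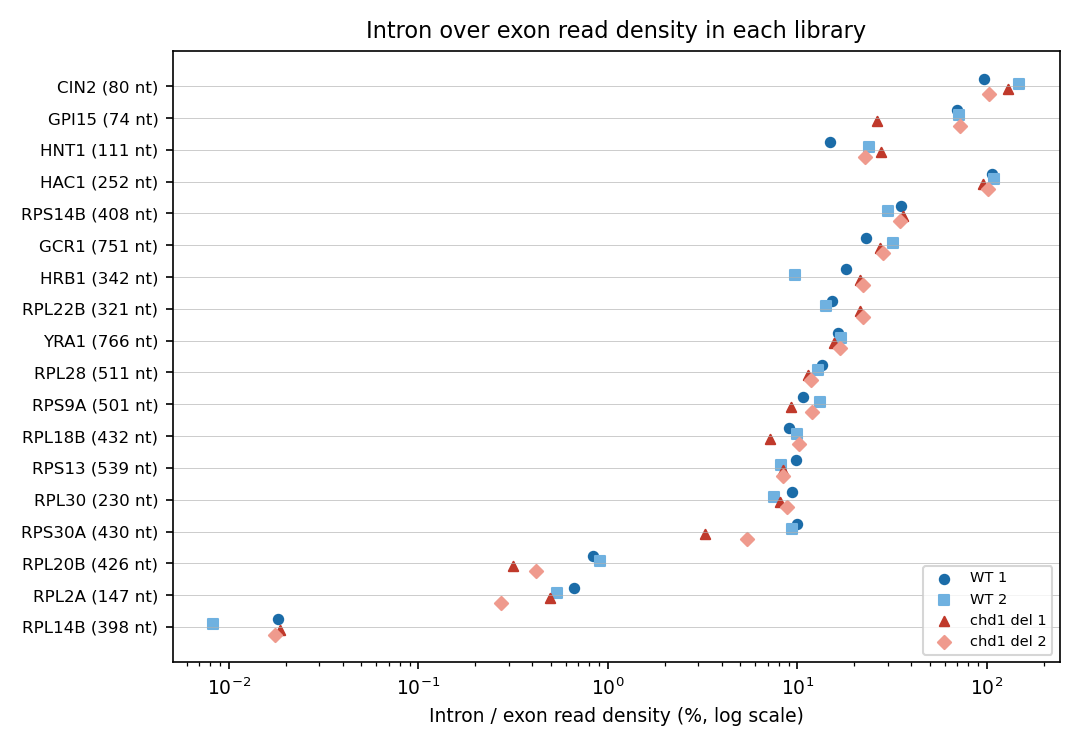
Read density of 18 introns relative to their exons (horizontal, percent, log scale) in each of the 4 libraries, with the intron length beside the gene name. HAC1 lies between 95.6% and 109%, and RPL14B below 0.02%. The pairs of wild-type and deletion points stand apart in RPL20B, RPS30A, RPL22B and RPL28, among others. Of those named, RPL20B and RPS30A passed the test relative to exons, and RPL22B and RPL28 did not.

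At the other end were introns of ribosomal protein genes with very many exon reads. The RPL14B intron had 3, 3, 6 and 4 reads in the wild-type pair and the deletion pair, replicate 1 before 2, against 17281 to 37949 exon reads, a mean ratio of 0.0157%. RPL14A followed with 0.0398%, and RPL16B with 0.0838%. RPL14A and RPL14B are near-identical copies, so how exon reads were divided between them is uncertain. Their exon reads, 118350 and 112843 over the 4 libraries, enter the pooled ratio of the longer class. No setting left out these copies alone. The ACT1 intron, in the actin gene, had 3, 1, 2 and 1 reads, a mean ratio of 0.200%.

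Among shorter introns with at least 100 exon reads in every library, the top of the order was CIN2, a gene for a tubulin-folding factor. Its intron of 80 nucleotides held 11, 18, 22 and 11 reads in the same order of libraries, a density 96.5%, 149%, 130% and 103% of that of the exons. GPI15, which acts in making glycolipid anchors, had an intron of 74 nucleotides at 69.6% and 71.7% in wild type against 26.4% and 72.6% in the deletion, from 7 to 13 reads. The introns of the telomeric YRF1-3, YRF1-6 and YRF1-7 were identical in sequence and were each counted 0, 4, 4 and 3 times, and how reads shared by such copies were assigned is not known. Their mean ratios were 73.1%, 70.6% and 70.1%.

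The lowest of the shorter introns with at least 10 reads was that of RPL2A, the one ribosomal protein gene in the class, with 4, 4, 6 and 2 reads and 0.666%, 0.542%, 0.496% and 0.273%. YIP3 had 2, 2, 4 and 2 reads and a mean of 4.99%. VMA10, a subunit gene of the vacuolar proton pump, had 15, 29, 16 and 14 reads and 5.89%, 13.0%, 3.82% and 6.54%. Apart from these, the intron of the tubulin gene TUB1 (116 nucleotides) had 0 reads beside 310 to 750 exon reads. Just inside the length limit were SEC27 (200 nucleotides, mean ratio 1.03%), COI1 (194, 73.0%, beside 3 to 7 exon reads) and COF1 (179, 0.158%), and just outside it PFY1 (209, 0.586%), QCR9 (213, 5.22%, beside 33 to 61 exon reads) and RPL30 (230, 8.46%).

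Of the 20 genes listed as having regulated or slow splicing, 19 had a member, with 20 introns. Of these, 17 passed the minimum of exon reads, and 9 of the 17 had a mean ratio of at least 5%, with a list median of 7.72%; over all 148 introns past that minimum the count was 37 and the median 0.851%. Besides RPS14B, GCR1, RPL22B, YRA1, RPS9A, RPL18B and RPL30, the 9 were RPS22B (16.05%, an intron that holds a snoRNA gene) and APE2 (7.72%). The list was written from general knowledge of yeast. PTC7, whose unspliced RNA is known to be translated, fell under the minimum of exon reads; its intron had 3, 5, 5 and 4 reads beside 43 to 79 exon reads, a mean of 89.6%.

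Ribosomal protein genes come mostly as pairs of near-identical copies whose introns differ in sequence, and the copies differed in intron density. Of 39 pairs analysed here, with both introns measured and no non-coding RNA gene inside, 24 had the same order of the copies in all 4 libraries, and in 19 the values of the copies did not overlap. The median difference was 2.54-fold. RPS9A stood at 11.3% ± 1.69 (SD over the 4 libraries) and RPS9B at 0.487% ± 0.0728, a difference of 23.1-fold. RPS14B was 21.96-fold above RPS14A (1.55% ± 0.510). RPS0B (2.97%) was 15.3-fold above RPS0A and RPL22B 8.71-fold above RPL22A. In all 9 pairs with a difference of 5-fold or more the copy with the higher ratio had fewer exon reads, as it did in 26 of the 39. Which copy is called higher was read from these values, exon reads can be shared between copies, and the exon count is the denominator, so no test was made.

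**Figure D3:**
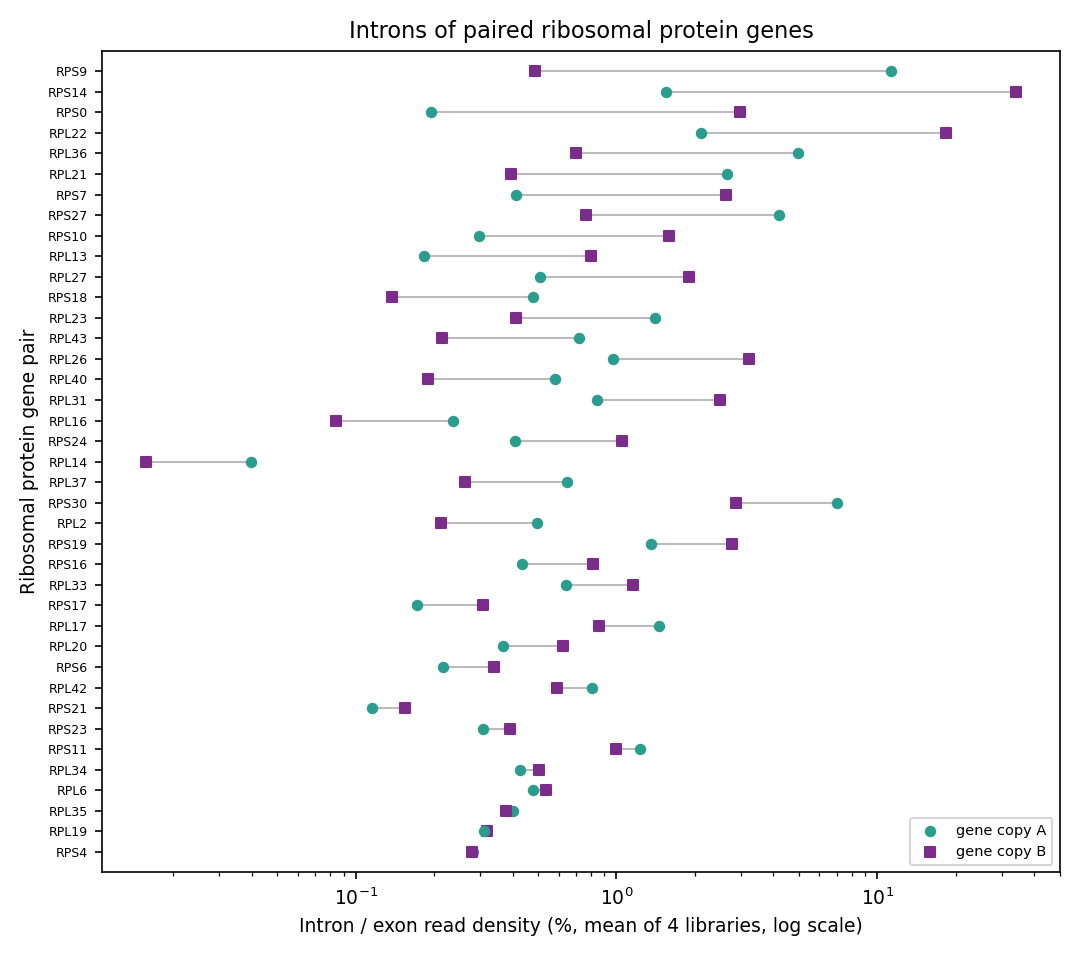
Each row is a pair of ribosomal protein genes, with the intron density relative to the exons of copy A (circle) and copy B (square) on a log scale, mean of 4 libraries, ordered by the fold difference. The widest gaps, at the top, are those of RPS9 (23.1-fold), RPS14 (21.96-fold) and RPS0 (15.3-fold).

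Genes with a pair of introns allowed a comparison inside 1 transcript. SUS1 encodes a subunit of chromatin and mRNA-export complexes. Its first intron (80 nucleotides, opening with GTATGA) had 3, 8, 7 and 6 reads and its second (70 nucleotides, opening with GTATGT) 0, 0, 1 and 0, with 26 to 71 exon reads. In RPL7B the first intron had 4.71% and 4.28% in wild type against 3.87% and 4.39% in the deletion, and the second, which holds snR59, 10.4%, 5.31%, 8.52% and 5.97%. In RPL7A the first intron had a mean of 0.258%, and the second, which holds snR39, 8.09%. DYN2, a dynein light-chain gene, had 4 reads in one intron and 1 in the other. The 2 introns of HMRA1, a silent copy of the mating-type a1 gene whose reads cannot be told from those of the expressed copy, had 3, 2, 1 and 0 reads and 4, 3, 2 and 1 reads.

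Meiotic genes had few reads. The 13 listed meiotic genes with a member had 14 introns with 62 reads in all, beside 1350 exon reads, and 0 of them passed the minimum of exon reads. REC107, whose splicing needs the meiotic factor Mer1, had 5, 10, 6 and 5 intron reads beside 61 to 135 exon reads, a mean of 75.5%. DMC1, the meiotic recombinase gene, had 5, 3, 3 and 2 intron reads beside 9, 9, 8 and 3 exon reads. HFM1, also Mer1-dependent, had 0 intron reads beside 26 to 56 exon reads, a count that allows up to 3 reads per library. Of the 14 introns, 2 (REC107 and DMC1) had enough reads for the test relative to exons and neither passed, and the other 12 were not tested.

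In 9 introns an annotated non-coding RNA gene lay inside, and 8 of these are small nucleolar RNAs, which guide the modification of ribosomal RNA and are cut stably out of the intron. IMD4, a gene of guanine nucleotide synthesis, holds snR54; its intron (408 nucleotides, chromosome XIII, 163309 to 163716) had 2399 and 5138 reads in wild type against 2835 and 1574 in the deletion, 598% and 1008% against 559% and 572% of exon density. Wild-type replicate 2 stood apart from the other 3 libraries. The EFB1 intron with snR18 had 28.3%, 21.7%, 35.2% and 35.3%. RPS22B with snR44 had 15.2%, 16.3%, 17.5% and 15.2%, TEF4 with snR38 7.30%, 11.4%, 8.30% and 12.7%, and ASC1 with snR24 5.53%, 5.30%, 6.27% and 5.55%. NOG2 with snR191 had 11, 14, 16 and 13 reads, and TUB3, over another annotated non-coding RNA gene, 7 in all. The 8 snoRNA introns took 3616, 6580, 5018 and 2882 reads of the 6597, 10354, 9665 and 5977 intron reads given above. The BUD25 intron, which lies across HEM14 and FAA2, had 9, 13, 30 and 17 reads that may belong to those genes.

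Pooled over introns, the shorter class had the higher density relative to its exons in every library. The 41 shorter introns together stood at 6.49% and 8.34% of exon density in wild type against 5.97% and 6.54% in the deletion, and the 98 longer ones at 1.60% and 1.42% against 1.31% and 1.37%. The difference between the classes was 4.05-fold to 5.87-fold over the 4 libraries. Its mean was 2.26 ± 0.22 on the log2 scale (SD, n = 4). The two-sided exact sign-flip permutation p was 0.125, the smallest that 4 libraries allow. All 4 libraries count the same introns, so this p does not cover the spread between introns or host genes. By the median over introns, wild-type replicate 1 had the opposite order, with 0% for the shorter class and 0.592% for the longer. Wild-type replicate 2 and the deletion pair had 1.45%, 2.98% and 0.894% against 0.693%, 0.492% and 0.525%. The classes differ in their hosts, however: ribosomal protein genes held 87 of the 98 longer introns and 1 of the 41 shorter. Without them the order turned around, with 8.01%, 10.5%, 7.49% and 8.39% for 40 shorter introns and 13.9%, 13.2%, 11.9% and 13.2% for 11 longer ones. Without both them and HAC1 the 10 remaining longer introns had 4.25%, 4.04%, 4.52% and 5.16%, again below the shorter class. With the introns that hold a non-coding RNA gene kept in, the class difference was 1.14 on the log2 scale, and with a length limit of 300 nucleotides 3.74. Length and host gene cannot be told apart here beyond these values.

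Among exons, the shorter ones mostly had the lower density. Relative to the longest exon of the same chain, other exons of 1 to 30 nucleotides had a median read density of 3.32% (96 exons), those of 31 to 60 nucleotides 9.90% (30 exons), those of 61 to 100 nucleotides 45.1% (15 exons), longer ones up to 200 nucleotides 29.2% (10 exons) and those over 200 nucleotides 96.0% (10 exons). The part of this in the densities of the shorter introns was not tested.

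**Figure D4:**
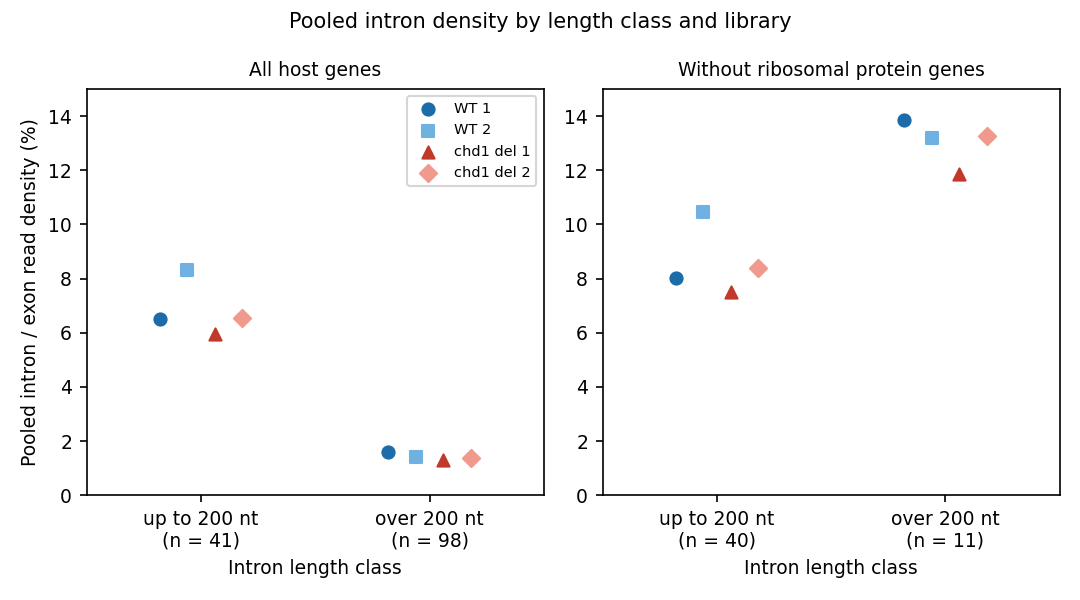
Pooled intron read density as a percent of exon density (vertical, from 0) for introns up to and over 200 nucleotides, 1 point per library, with all host genes on the left and without ribosomal protein genes on the right. The shorter class lies at 5.97% to 8.34% and the longer at 1.31% to 1.60% on the left; on the right the longer class, 11.9% to 13.9%, is the higher one.

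In the longer class the median ratio differed between groups of splice-site letters, but the groups overlapped widely. The quartiles were 0.311% and 1.16% for GTATGT and 0.353% and 5.97% for GTACGT. Ribosomal protein genes held 64 of the 73 GTATGT introns and all 14 with GTACGT. The 73 introns opening with GTATGT had a median mean ratio of 0.584%, the 14 with GTACGT 1.63% and the 11 with other letters 1.0%. The 89 with TACTAAC had a median of 0.592%, and the 9 without it 4.31%, with a wide spread. HAC1, HRB1, YRA1 and RPS9A stood at 11.3% or more and RPL7B intron 1 at 4.31%, while RPS9B (0.487%), RPL19A (0.311%), RPL7A intron 1 (0.258%) and RPS21A (0.116%) lay below the median of the introns with TACTAAC. These are counts over introns of the same libraries, given as a description; the letters were sought on the strand of the gene, and a match is not proof of use.

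The comparison of genotypes asked whether introns accumulate or fade without CHD1, which the series title ties to transcribed and spliced genes. The pooled ratio of the longer introns was 1.51% ± 0.13 in wild type and 1.34% ± 0.05 in the deletion (SD, n = 2 each), a log2 difference of -0.17, and the groups did not overlap. It was -0.45 with the introns that hold a non-coding RNA gene kept in, IMD4 among them. The two-sided exact permutation p was 0.333, the smallest that 2 against 2 allows. As a share of all reads on these chains, intron reads were 1.18% (95% Wilson interval 1.14 to 1.22) and 1.04% (1.01 to 1.08) in wild type and 0.962% (0.933 to 0.991) and 1.01% (0.972 to 1.05) in the deletion. The median ratio of the longer introns was 0.642% ± 0.0715 in wild type and 0.508% ± 0.0229 in the deletion (exact permutation p = 0.333). Without ribosomal protein genes the median of the longer introns was 0.663% and 1.34% in wild type against 1.62% and 1.14% in the deletion, the opposite direction.

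For the shorter introns the pooled ratio was 7.41% ± 1.30 in wild type and 6.26% ± 0.40 in the deletion (log2 difference -0.23, exact permutation p = 0.667), with overlap of the groups. Their median was 0% and 1.45% in wild type against 2.98% and 0.894% in the deletion. Both results depended on the identical YRF1 introns, which were left out after the data were seen. The pooled ratio was then 5.26% and 6.04% in wild type against 4.39% and 4.72% in the deletion, without overlap (exact permutation p = 0.333). The median was then 0.190% and 0.477% against 1.10% and 0.136%. The gap between the classes was 2.29 ± 0.38 in wild type and 2.22 ± 0.04 in the deletion on the log2 scale (exact permutation p = 1.0). Without wild-type replicate 2 the sign of this difference between genotypes turned.

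Intron by intron, 79 of the 252 passed the filter for the level test, 75 of them over 200 nucleotides. Of the 79, 11 fell in the deletion, 0 rose and 68 did not pass; 10.3% of all 397 features tested fell and 0.504% rose. The median log2 change was -0.39 for the 79 introns and -0.06 for the 284 exons tested. Those exons include exons of other genes than the hosts of the 79 introns. Relative to the exons of the same chain, the median was -0.19 over 129 introns. It was -0.22 for the 104 longer and 0.06 for the 25 shorter of them. The calls rest on all 4 libraries: edgeR made 3 intron calls without wild-type replicate 1, 1 without wild-type replicate 2 and 0 without either deletion replicate, where 9 introns without replicate 1 and 16 without replicate 2 had an unadjusted p under 0.05. DESeq2 called 1 and gave no adjusted p for 62. With total gene counts in place of TMM factors 5 were called, and HAC1, RPS22B, RPS10B, RPS13, RPL28 and VMA10 no longer passed.

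IMD4 changed most clearly, from 1184 and 1848 CPM (counts scaled to library size) in wild type to 660 and 588 in the deletion. The log2 change was -1.28 ± 0.11 (adjusted p = 8.90e-29, edgeR's quasi-likelihood test), and that of its exons -0.78 ± 0.09. The size of this p depended on the fit. It was 0.00444 with DESeq2's Wald test and 0.000501 with edgeR's test on the introns alone, both adjusted. With each of the 4 libraries left out in turn the log2 change lay between -1.56 and -0.91, and the call was lost without either deletion replicate. The others that fell were HAC1 (-0.49), the snoRNA host RPS22B (-0.49), the vacuolar pump gene VMA10 (-1.07), and introns of the ribosomal protein genes RPL20B (-1.43), RPS30A (-1.27), RPL35B (-1.68), RPL42B (-1.02), RPS10B (-1.20), RPS13 (-0.41) and RPL28 (-0.35). The value of RPS10B was -2.07 without deletion replicate 1, and without wild-type replicate 1 those of RPS13 and RPL28 were -0.26 and -0.22. The exons of HAC1 had a log2 change of -0.36 and those of RPS22B -0.54.

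Relative to the exons of the same gene, 2 of 129 introns tested fell and 0 rose (1.55% called), both over 200 nucleotides; 18 had an unadjusted p under 0.05. The count that rose was 1 with the introns that hold a non-coding RNA gene left out of the fit (RPL22A, log2 0.78 ± 0.24, adjusted p = 0.0416, edgeR). Of the snoRNA hosts, the IMD4 intron did not pass (-0.46 ± 0.19, adjusted p = 0.218, edgeR's quasi-likelihood test). The EFB1 intron did not pass either (0.51 ± 0.20, adjusted p = 0.195, same test). Without wild-type replicate 1 their log2 changes were larger, -0.84 for IMD4 and 0.70 for EFB1. The RPL20B intron had 30 and 41 reads in wild type against 21 and 17 in the deletion, a ratio of 0.839% and 0.915% against 0.316% and 0.417%, without overlap (log2 change relative to exons -1.29 ± 0.32, adjusted p = 0.00692, edgeR's quasi-likelihood test). RPL20B encodes a protein of the large subunit, and its exons had a log2 change of -0.14 ± 0.11. The RPS30A intron had 29 and 31 reads in wild type against 21 and 15 in the deletion, or 9.96% and 9.35% against 3.28% and 5.45%, without overlap (log2 change relative to exons -1.29 ± 0.33, adjusted p = 0.00692, same test). RPS30A encodes a protein of the small subunit, its exons had a log2 change of -0.02 ± 0.17, and RPS30B is a close copy. The RPS30A call was lost without any 1 of the 4 libraries, with a log2 change of -0.82 without deletion replicate 1, and the RPL20B call without wild-type replicate 2 and without either deletion replicate. DESeq2 called 0 of the 129, with 4 at an unadjusted p under 0.05.

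The next introns did not pass. RPL35B had a log2 change relative to exons of -1.49 ± 0.48 (adjusted p = 0.0855, edgeR's quasi-likelihood test), from 9 and 18 reads in wild type against 6 and 6 in the deletion. DBP2, an RNA helicase gene whose long intron (1002 nucleotides) takes part in limiting its own product, went the other way, with 0.399% and 0.361% in wild type against 1.01% and 0.874% in the deletion (1.33 ± 0.48, adjusted p = 0.144, same test). RPL22A, whose ratio was 1.72% and 1.44% in wild type against 3.05% and 2.20% in the deletion, had 0.76 ± 0.27 (adjusted p = 0.144, edgeR with all 129 introns). HAC1, RPS14B, YRA1, RPL30 and CIN2, all with high ratios, showed no change past the test. Their values relative to exons were -0.12 ± 0.21, 0.14 ± 0.22, -0.05 ± 0.23, -0.0009 ± 0.20 and -0.05 ± 0.37, in that order. RPS30A, with a mean ratio of 7.01%, did pass, as given above. Of the 15 introns tested from the list of regulated genes, 0 passed.

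**Figure D5:**
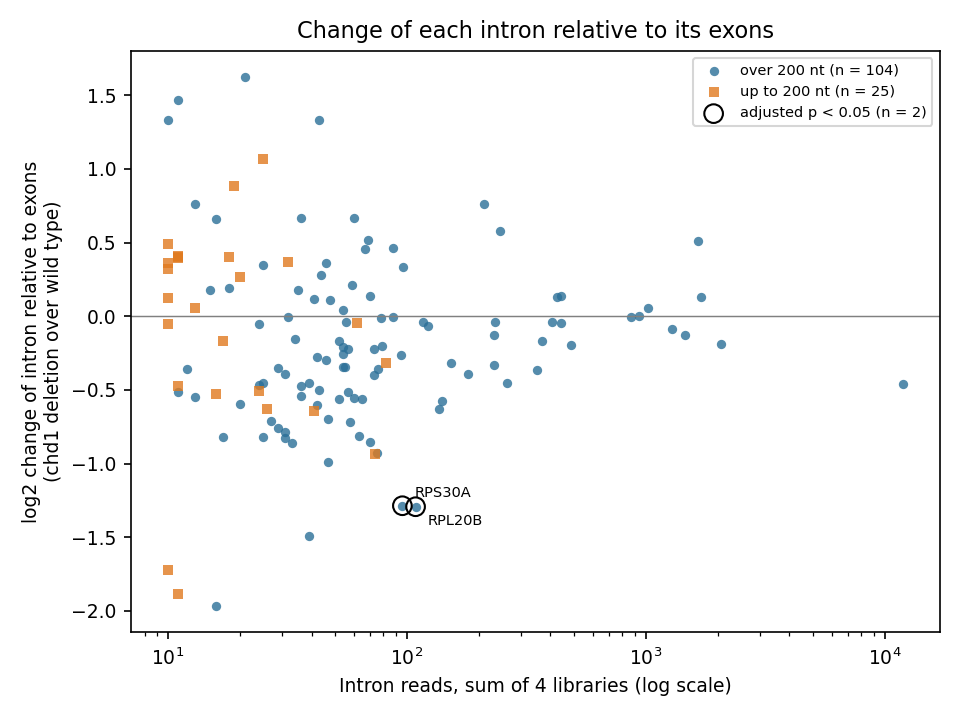
Log2 change of each of 129 introns relative to its exons, deletion over wild type (vertical), against its reads summed over the 4 libraries (horizontal, log scale), with the 25 shorter introns as squares and the 104 longer ones as circles. The 2 ringed introns, RPL20B and RPS30A at -1.29, passed the test; the spread widens toward low counts on the left.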

How the data were processed

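Total RNA of 4 yeast libraries was sequenced. The authors deposited whole-number read counts for genes and, in a second table per library, for 793 exons and introns named by position, per the file headers. Per the submitters' processing notes, CASAVA 1.8 and TopHat were used, with sacCer3 as build. The counting program, read length, use of strand and treatment of reads that cross a splice junction or map to several places are each not given in sources used here.

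Features that abut were chained, and even positions in chains of 3 or 5 were taken as introns; no chain of 7 was found. All 252 matched an annotated intron of R64, the assembly behind sacCer3, and coordinates count from 1. Genotypes came from the labels. Read density was reads divided by length, and the intron over exon ratio divided it by the density of the summed exons of the chain, for introns whose exons had at least 100 reads in every library. Pooled ratios left out introns holding an annotated non-coding RNA gene.

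Of the 793 features, the 397 that passed filterByExpr at a minimum count of 10 were tested in level with edgeR 4.0.16 (quasi-likelihood, R 4.3.3). Library sizes and TMM factors were those of the gene tables, with Benjamini-Hochberg adjustment at 0.05. The change relative to exons came from 8 columns per intron (intron and exon counts of the 4 libraries), as a genotype-by-type interaction blocked on library, for introns with at least 10 reads in all. The standard error beside an edgeR log2 change was taken as the absolute change over the square root of the test's F statistic. Pooled and median ratios were compared by two-sided exact permutation tests. DESeq2 1.42.0, other scalings, filters, length limits and left-out libraries were tried. The fits were checked on simulated counts. Wilson intervals at 95% cover counting error only, since reads carry no molecular identifiers.

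Named introns are those past either test, the 5 highest and 3 lowest ratios per length class, those holding a non-coding RNA gene, selected chains with more than 1 intron, those nearest the length limit, and lists of regulated and meiotic genes. The pairs of ribosomal protein genes, the BUD25 intron and the introns next in order of p were named after their values were seen. The members, lists and tests were chosen with earlier results of these data known. A pair of ribosomal protein genes is not reported here.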

Additional observations from a re-analysis of the deposited data

How the results depend on the processing

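The number of introns called in the level test, 11, was 5 with total gene counts, 1 with DESeq2 and 0 to 3 with 1 library left out. Total gene counts moved the median log2 change of all features from -0.10 to 0.01 and that of the introns from -0.39 to -0.29. The number changed relative to exons, 2, was 1 without a filter on low counts, 1 with bias-adjusted deviances, 0 with DESeq2, 3 with non-coding-gene introns left out and 0 to 3 with 1 library left out. The replicate numbers did not pair the samples by the labels (correlation of same-numbered libraries over 211 chains 0.20); with a replicate block 9 introns were called in level, without VMA10 (adjusted p = 0.112) and RPL28 (0.0593, edgeR), and 2 relative to exons. The log2 genotype difference in the pooled ratio ranged over left-out libraries from -0.26 to -0.09 for longer, -0.42 to -0.05 for shorter and -0.26 to -0.10 for all introns, and was -0.45 for longer and -0.46 for all with non-coding-gene introns kept. It turned to 0.22 for longer and 0.0373 for all introns without ribosomal protein genes and HAC1. The median of longer introns, lower by 0.13 points in the deletion (-0.18 to -0.08 over left-out libraries), turned to 0.38 without ribosomal protein genes and 0.33 without HAC1 as well. That of shorter introns, 1.21 points (0.17 to 2.25), was 0.28 without the YRF1 genes and -0.14 for the 2 introns with at least 1000 exon reads. The genotype difference of the class gap, -0.06, was 0.22 with non-coding-gene introns kept, 0.11 with a limit of 150 nucleotides, 0.12 with no minimum of exon reads, and -0.33 to 0.21 over left-out libraries. The class gap itself, 2.26, turned to -0.61 without ribosomal protein genes (2.16 to 2.33 over left-out libraries), and was 1.14 with non-coding-gene introns kept and 3.74 with a limit of 300 nucleotides. The causes were not tested. Intron depth limits all intron tests. Chosen after seeing the data were the settings without HAC1, YRF1 or BUD25, the introns fitted alone and the bias-adjusted deviances.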
